A study of Saccharomyces cerevisiae with 24 samples.

Results

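The nuclear genes of the respiratory chain and the ATP synthase of budding yeast, Saccharomyces cerevisiae, are described here, 40 genes of the 5449 measured. They were taken by gene symbol from a list of subunits, a rule that uses no measured value, although earlier results of these data were known when the list was drawn up. All 40 were found on the arrays, each with 1 probe set. The list holds 3 NADH dehydrogenases, 4 subunits of complex II, 9 of complex III, 2 forms of cytochrome c, 9 complex IV genes and 13 ATP synthase genes. Subunits encoded in the mitochondrial genome are not among them.

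The chain passes electrons from NADH and succinate to oxygen. Budding yeast has no proton-pumping complex I: the single-protein dehydrogenases Ndi1, on the inner face of the inner mitochondrial membrane, and Nde1 and Nde2, on its outer face, feed electrons from NADH to ubiquinone, as succinate dehydrogenase (complex II) does from succinate. The cytochrome bc1 complex (complex III), cytochrome c and cytochrome c oxidase (complex IV) carry them to oxygen. Complexes III and IV move protons across the membrane, and the ATP synthase uses the proton gradient to make ATP. Glucose represses many of these genes in yeast, and Snf1, a kinase of the AMP-activated family, is needed to lift glucose repression.

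The study used 24 Affymetrix arrays of total RNA, for 8 strains with 3 biological replicates each. The reference strain is labelled wild type, and the others lack genes for β-subunits of Snf1, the subunits that tether the kinase complex and direct where it goes in the cell. Their genotypes are sip1Δ, sip2Δ, gal83Δ, sip1Δ sip2Δ, sip1Δ gal83Δ, sip2Δ gal83Δ and sip1Δ sip2Δ gal83Δ, written below without the Δ, and the last is called the triple strain. All cultures were aerobic and glucose-limited, in bioreactors of 1 L at pH 5.0 and 30 °C with glucose at 10 g/L, and were harvested at steady state at a dilution rate of 0.1 per h. No label names the strain background, or says whether a strain is 1 clone.

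Levels are deposited log2 intensities per probe set, so a difference of 1 is a factor of 2 in signal, and levels of different genes are not compared. Changes are log2 differences between strain means ± the standard error of 1 linear model (limma) over all 24 arrays, n = 3 per strain. A gene was called at a two-sided Benjamini-Hochberg adjusted p under 0.05 over all 5449 genes, and every adjusted p below is from this test. The number of arrays limits the precision. All 7 comparisons with the reference share the same 3 reference arrays, so their values stand side by side and are not independent.

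The deleted genes SIP1, SIP2 and GAL83 lay between 2.02 and 2.09 in the strains that lack them, except on 2 arrays. The array labelled sip1 sip2 replicate 3 read 6.0 for SIP2, and the array labelled sip1 gal83 replicate 2 read 9.72 for GAL83. The array labelled sip2 gal83 replicate 1 stood apart from its strain's others in several respiratory genes, as described below. The counts and some of the single-gene results that use these 3 arrays are given also without them, which was decided once the values were known. Other single-gene results are given only with them. Most respiratory genes gave strong signals, with 36 of the 40 above a mean of 13 and the median gene at the 93.7th percentile of all genes. In bulk RNA, a change in the share of cells or in RNA per cell cannot be told apart from a change within cells.

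Between 19 and 21 of the 40 respiratory genes rose in each strain that lacked 1 β-subunit, and 0 passed the test in the strain that lacked both Sip1 and Sip2. Over the 8 strains, 33 of 40 differed by the moderated F test (82.5%, against 71.4% of all genes). In the sip1 strain 24 were called, 21 higher and 3 lower than in the reference, where 39.4% of all genes were called, 10.3% higher and 29.1% lower. In the sip2 strain 23 were called, 19 higher and 4 lower, against 40.7% of all genes, 8.55% higher and 32.1% lower. In the gal83 strain 22 were called, 19 higher and 3 lower, against 41.2% of all genes, 10.6% higher and 30.6% lower. The median changes of the 40 genes were 0.18, 0.10 and 0.17 in these strains, where the median of all genes was -0.087, -0.12 and -0.097. Without the 3 doubted arrays, 22 were higher and 3 lower in sip1, 19 and 6 in sip2, and 21 and 7 in gal83. No array of these strains is among the 3, so their changes stayed the same and the error estimate moved. With each array centred on its own median, the respiratory counts were 24 higher and 2 lower in sip1, 27 and 1 in sip2, and 22 and 2 in gal83. Centring moved the split over all genes more, from 562 higher and 1586 lower to 1272 and 1024 in sip1, from 466 and 1751 to 1247 and 1004 in sip2, and from 575 and 1668 to 1263 and 997 in gal83.

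In the sip1 sip2 strain, 0 of the 40 genes were called by limma, and 4 had an unadjusted p under 0.05 (0.257% of all genes were called, 0.11% higher and 0.147% lower). Their median change was 0.031. The arrays of the deletion strain and the reference did not overlap for 28 of the 40 genes in sip1, 26 in sip2, 28 in gal83 and 6 in sip1 sip2, against 58.9%, 60.6%, 58.2% and 16% of all genes. The strains that lack Gal83 together with another β-subunit had fewer calls than each single-deletion strain, a difference in counts that was not itself tested. In sip1 gal83, 6 were higher and 2 lower (3.6% and 7.3% of all genes, 10.9% in either direction). In sip2 gal83, 9 were higher and 9 lower (10.8% and 26.4% of all genes, 37.3% in either direction), or 16 higher and 5 lower with centred arrays and 6 higher and 6 lower without the 3 doubted arrays. In the triple strain, 14 were higher and 4 lower (14.9% and 23.5% of all genes, 38.4% in either direction), or 16 higher and 2 lower with centred arrays. The triple strain's arrays did not overlap with the reference for 23 genes, those of sip2 gal83 for 22 and those of sip1 gal83 for 15, against 62.6%, 46.1% and 39.3% of all genes. The counts in the strains sip1 gal83 and sip2 gal83 are the least firm. Without 1 array at a time, the first lay between 2 and 6 calls in place of 8, falling to 2 without sip1 gal83 replicate 3, to 3 without reference replicate 2 or reference replicate 3 and to 5 without reference replicate 1 or sip1 gal83 replicate 1. The sip1 gal83 count was 10 without the 3 doubted arrays, 8 higher and 2 lower. With only the compared strains in the fit, 3 genes were called in each of them.

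**Figure D1:**
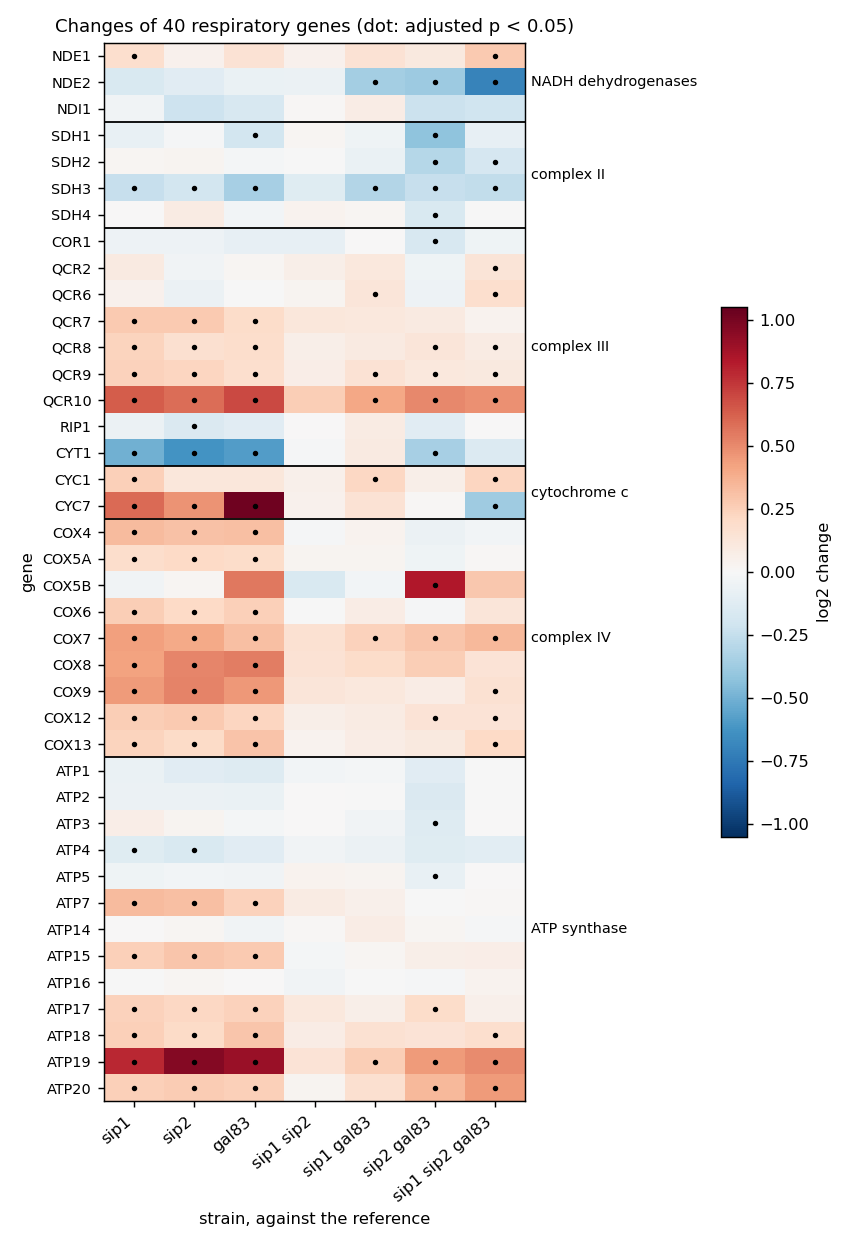
Log2 change of each of the 40 genes (vertical, by complex) in each of the 7 deletion strains against the reference (horizontal). Colour gives the change and a dot marks an adjusted p under 0.05. The complex IV genes other than COX5B are dotted in all 3 single deletion strains, and no gene is dotted in sip1 sip2.

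Of the NADH dehydrogenases, the external enzyme gene NDE2 was lower in the strains that lack Gal83 and another β-subunit. On the reference arrays it read 13.05, 13.16 and 13.41. The triple strain's arrays read 12.36, 12.52 and 12.64, all below every other array of the 8 strains. The change was -0.70 ± 0.098 against the reference (adjusted p = 2.92e-05) and -0.64 ± 0.098 against sip1 sip2 (adjusted p = 9.68e-05). In sip2 gal83 the arrays read 12.75, 12.85 and 12.88, below the reference arrays, with a change of -0.38 ± 0.098 (adjusted p = 0.00661, or 0.0814 with these strains alone in the fit). In sip1 gal83 they read 12.75, 12.82 and 12.97, a change of -0.36 ± 0.098 (adjusted p = 0.0245), a call that ended without reference replicate 2 or 3 or sip1 gal83 replicate 1 or 3 (adjusted p = 0.0522 to 0.133). In the single deletion strains NDE2 stood at -0.16, -0.12 and -0.07 and did not pass.

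NDE1, the other external enzyme gene, went the other way in the triple strain. Its reference arrays read 14.24, 14.29 and 14.33, and the triple strain's arrays 14.53, 14.56 and 14.60, with no overlap. The rise was 0.28 ± 0.059 (adjusted p = 0.00153), and 0.23 ± 0.059 against sip1 sip2 (adjusted p = 0.00616). NDI1, the internal enzyme gene, read 13.35, 13.35 and 13.40 in the reference and 13.13, 13.16 and 13.18 in the triple strain. These arrays did not overlap, but the change of -0.21 ± 0.090 did not pass (adjusted p = 0.0747). NDI1 passed in none of the comparisons with the reference on all 24 arrays. Without the 3 doubted arrays it was called lower in sip2 (-0.22, adjusted p = 0.0115), in gal83 (-0.17, adjusted p = 0.0391) and in the triple strain (-0.21, adjusted p = 0.0136). In sip1 NDE1 read 14.38, 14.50 and 14.52, a rise of 0.18 ± 0.059 (adjusted p = 0.0238) that did not pass without replicate 1 or 2 of either strain (adjusted p = 0.0535 to 0.0896). NDE1 was also called higher, without the 3 doubted arrays, in gal83 (0.15, adjusted p = 0.00601), sip1 gal83 (0.18, adjusted p = 0.0128) and sip2 gal83 (0.20, adjusted p = 0.00542).

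Complex II was the one complex without a higher gene in any comparison with the reference. SDH3, a membrane anchor subunit that binds haem, was lower in 6 of the 7 deletion strains. In the reference it read 14.22, 14.27 and 14.30. Those of gal83 read 13.89, 13.89 and 13.96, and the arrays of sip1, sip2, sip1 gal83, sip2 gal83 and the triple strain all lay between 13.84 and 14.08. None of these overlapped with the reference. The change was -0.35 ± 0.043 in gal83 (adjusted p = 1.2e-05), -0.31 ± 0.043 in sip1 gal83 (adjusted p = 0.000299) and -0.24 ± 0.043 in sip1 (adjusted p = 0.000333). In sip2 it was -0.19 ± 0.043 (adjusted p = 0.00171), which centring the arrays ended (adjusted p = 0.405). In sip1 sip2 SDH3 read 14.09, 14.12 and 14.21, a change of -0.12 ± 0.043 that did not pass (adjusted p = 0.291).

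The flavoprotein gene SDH1 and the iron-sulfur protein gene SDH2 were low in sip2 gal83. SDH1 read 14.15, 14.20 and 14.29 in the reference and 13.55, 13.87 and 13.96 in sip2 gal83. The sip2 gal83 arrays were the lowest 3 of the 24, and the lowest value was that of replicate 1. SDH1 fell by 0.42 ± 0.073 there (adjusted p = 0.000469, or 0.0887 with these strains alone in the fit). SDH2 read 14.46, 14.54 and 14.56 in the reference and 14.11, 14.27 and 14.29 in sip2 gal83. It fell by 0.30 ± 0.048 (adjusted p = 0.000321, or 0.052 with these strains alone). SDH1 was also called lower in gal83, at -0.19 (adjusted p = 0.0026 without the 3 doubted arrays). That call ended in 5 of the 6 fits without 1 array, and with centred arrays (adjusted p = 0.428). SDH2 was also called lower in the triple strain, against the reference and against sip1 sip2. Both calls held without any 1 array but not with centred arrays (adjusted p = 0.165 and 0.0970). SDH4, the other anchor subunit gene, stood at -0.16 ± 0.052 in sip2 gal83 (adjusted p = 0.0271, or 0.193 without the 3 doubted arrays), and the call ended without sip2 gal83 replicate 1 (adjusted p = 0.167) and without reference replicate 2 or 3 (0.0767 and 0.123). Its sip2 gal83 arrays overlapped with the reference.

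Within complex III, 4 small subunit genes rose and that of cytochrome c1 fell in the single deletion strains. QCR10, which encodes a small subunit that the yeast complex can lose without losing its activity, had reference arrays at 13.68, 13.83 and 13.92. Its arrays read 14.36, 14.40 and 14.57 in sip1, 14.37, 14.37 and 14.45 in sip2, and 14.46, 14.50 and 14.55 in gal83. The single deletion strains lay above the reference with no overlap. QCR10 rose by 0.63 ± 0.088 in sip1 (adjusted p = 3.92e-05), 0.59 ± 0.088 in sip2 (adjusted p = 6.65e-05) and 0.69 ± 0.088 in gal83 (adjusted p = 1.81e-05). In the sip1 sip2 strain it read 13.86, 14.07 and 14.26, overlapping with the reference. QCR10 was the gene with the largest called rise of complex III also in sip1 gal83 (0.41 ± 0.088), sip2 gal83 (0.50 ± 0.088) and the triple strain (0.48 ± 0.088).

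QCR7, QCR8 and QCR9 encode further small subunits. QCR7 read 14.70, 14.70 and 14.76 in the reference and 14.93, 14.98 and 15.07 in sip1, and rose there by 0.27 ± 0.058 (adjusted p = 0.00135). In sip2 it rose by as much (adjusted p = 0.00126). In gal83 QCR7 rose by 0.19 ± 0.058 (adjusted p = 0.0151), a call that ended without gal83 replicate 2 (adjusted p = 0.0676). QCR8 and QCR9 were higher in all 3 single deletion strains too, by 0.17 to 0.24. The core proteins COR1 and QCR2 and the acidic subunit QCR6 were called in none of these strains on all 24 arrays. Without the 3 doubted arrays QCR2 was called higher in sip1 (0.091, adjusted p = 0.0281). In the triple strain 5 of the 9 complex III genes were called higher and 0 lower, QCR2 and QCR6 among them. Both calls held without any 1 array compared (adjusted p at most 0.0362 and 0.0121).

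CYT1, encoding cytochrome c1, had the largest fall among the 40 genes in each single deletion strain. Its reference arrays read 13.41, 13.51 and 13.53. They read 12.89, 12.97 and 13.06 in sip1, 12.76, 12.86 and 12.94 in sip2, and 12.78, 12.93 and 12.98 in gal83, all below the reference. The changes were -0.51 ± 0.092 in sip1 (adjusted p = 0.000411), -0.63 ± 0.092 in sip2 (adjusted p = 5.48e-05) and -0.58 ± 0.092 in gal83 (adjusted p = 0.000114). In sip1 sip2 the arrays read 13.31, 13.51 and 13.59 and in sip1 gal83 13.53, 13.54 and 13.66, neither called. In sip2 gal83 CYT1 read 12.89, 13.22 and 13.28, a change of -0.35 ± 0.092 (adjusted p = 0.00726, or 0.0568 without the 3 doubted arrays). RIP1, the Rieske iron-sulfur protein gene, was lower in sip2, at -0.15 ± 0.048 (adjusted p = 0.0166), which ended with centred arrays (adjusted p = 0.867) and without sip2 replicate 2 (adjusted p = 0.0983). In gal83 it stood at -0.12 (adjusted p = 0.051, or 0.0167 without the 3 doubted arrays).

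**Figure D2:**
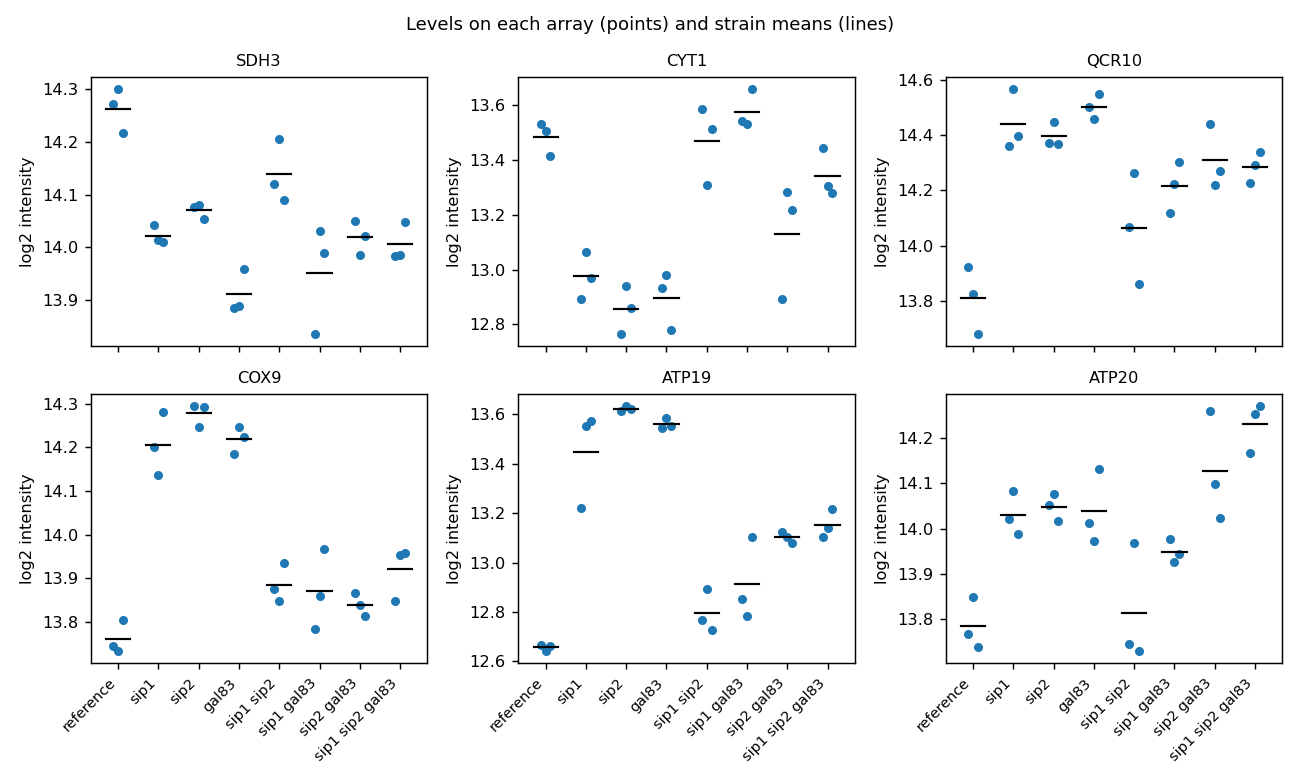
Log2 intensity (vertical) of 6 genes on each of the 3 arrays of the 8 strains (horizontal), with lines at the strain means. QCR10, COX9 and ATP19 are high and CYT1 is low on all 9 arrays of the single deletion strains, SDH3 is low in 6 strains, and ATP20 is highest in the triple strain.

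Cytochrome c has 2 forms in yeast. CYC1 encodes the main aerobic form, iso-1, and CYC7 the minor form, iso-2, which is favoured at low oxygen. CYC7 had the widest range over the strain means among the 40 genes, 1.39, from the triple strain to gal83. Its reference arrays read 10.40, 10.45 and 10.61. The gal83 arrays read 11.39, 11.49 and 11.62, above every other array of the 24, followed by sip1 at 10.97, 11.05 and 11.21 and sip2 at 10.86, 10.91 and 11.10. CYC7 rose by 1.02 ± 0.14 in gal83 (adjusted p = 3.3e-05), 0.59 ± 0.14 in sip1 (adjusted p = 0.00271) and 0.47 ± 0.14 in sip2 (adjusted p = 0.0116, or 0.0563 without sip2 replicate 3).

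The double strains did not show a rise of CYC7, with means of 10.53 in sip1 sip2, 10.64 in sip1 gal83 and 10.50 in sip2 gal83. The last holds 1 array, replicate 1, at 10.85 beside 10.30 and 10.35. In the triple strain the arrays read 9.99, 10.15 and 10.20, below the reference. That change of -0.38 ± 0.14 (adjusted p = 0.0398) did not pass without any one of the 6 arrays compared, with adjusted p between 0.0509 and 0.139, nor with centred arrays (adjusted p = 0.0977). CYC1 moved less. Its reference arrays read 14.38, 14.39 and 14.58, so that 1 array lay apart, and the sip1 arrays read 14.59, 14.73 and 14.78, a rise of 0.25 ± 0.056 (adjusted p = 0.00227, or 0.0591 with these strains alone). In the triple strain CYC1 read 14.61, 14.70 and 14.73, a rise of 0.23 ± 0.056 (adjusted p = 0.00421).

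Complex IV gave the most even picture. Of its 9 genes, the 8 other than COX5B were higher in sip1, in sip2 and in gal83. COX9, encoding subunit VIIa, read 13.73, 13.74 and 13.80 in the reference. It read 14.14, 14.20 and 14.28 in sip1, 14.25, 14.29 and 14.29 in sip2, and 14.18, 14.22 and 14.25 in gal83, all well above the reference. COX9 rose by 0.45 ± 0.045 in sip1 (adjusted p = 2.39e-06), 0.52 ± 0.045 in sip2 (adjusted p = 5.07e-07) and 0.46 ± 0.045 in gal83 (adjusted p = 1.51e-06). The 5 other strains, the reference included, all lay between 13.73 and 13.97. Among them the triple strain was called higher than the reference, also without any 1 array compared (adjusted p at most 0.0472). COX8, the subunit VIII gene, read 13.72, 13.86 and 14.00 in the reference and 14.34, 14.40 and 14.46 in gal83, its highest strain, and rose there by 0.54 ± 0.10 (adjusted p = 0.000599). COX7, the subunit VII gene, read 13.86, 14.11 and 14.21 in the reference and 14.44, 14.49 and 14.54 in sip1, its highest strain, and rose there by 0.43 ± 0.074 (adjusted p = 0.000249). It was also higher in the triple strain, by 0.34 ± 0.074 (adjusted p = 0.0017). In that strain 4 of the 9 complex IV genes were called higher and 0 lower, COX9, COX12 and COX13 beside COX7. The COX12 call there ended in 4 of the 6 fits without 1 array. The other 5 called genes, COX4, COX5A, COX6, COX12 and COX13, rose by 0.18 to 0.33 in the single deletion strains. The call of COX6 in sip2 ended with these strains alone in the fit (adjusted p = 0.0661). The median change of the 9 genes was 0.26 in sip1, 0.27 in sip2 and 0.32 in gal83.

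Subunit V of complex IV also has 2 forms, COX5A in air and COX5B at low oxygen. COX5A read 14.43, 14.45 and 14.47 in the reference. It read 14.60, 14.63 and 14.68 in sip1, 14.66, 14.66 and 14.68 in sip2, and 14.60, 14.65 and 14.68 in gal83, with no overlap. The rises were 0.18 ± 0.040 (adjusted p = 0.00152), 0.21 ± 0.040 (adjusted p = 0.000421) and 0.19 ± 0.040 (adjusted p = 0.00108). The arrays of the 3 strains overlapped with each other. COX5B had a low signal, at the 8.35th percentile of all genes, with reference arrays at 5.92, 5.99 and 6.0. In gal83 it read 6.26, 6.56 and 6.75, all above the reference, a change of 0.55 that did not pass on all 24 arrays (adjusted p = 0.166). Without the 3 doubted arrays, one of which is the array at 8.0 below, the same change passed (adjusted p = 0.00132). In sip2 gal83 it read 6.11, 6.30 and 8.0, a change of 0.84 ± 0.31 (adjusted p = 0.0419). Without replicate 1, the array at 8.0, it did not pass (adjusted p = 0.18), nor without any one of the reference arrays (adjusted p = 0.0786 to 0.0958).

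**Figure D3:**
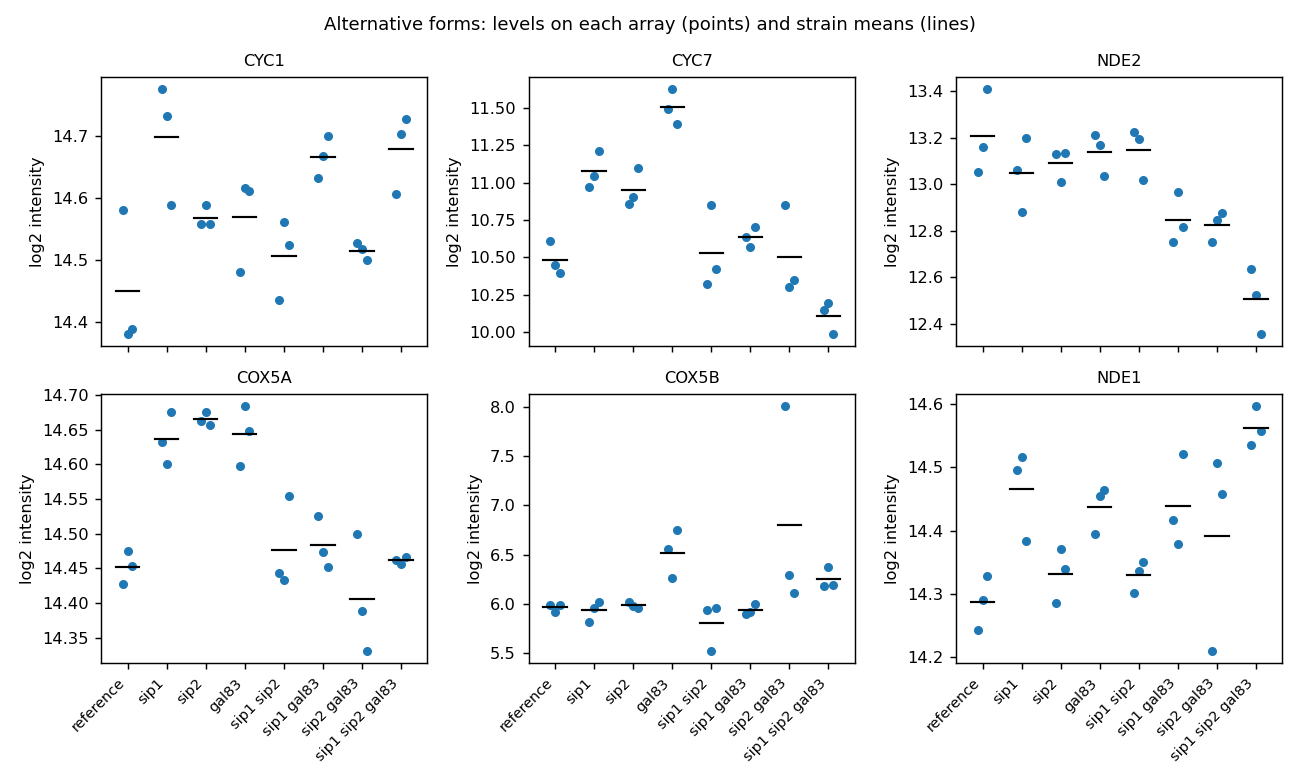
Log2 intensity (vertical) on each of the 3 arrays of the 8 strains (horizontal) for the cytochrome c genes CYC1 and CYC7, the subunit V genes COX5A and COX5B and the external NADH dehydrogenase genes NDE1 and NDE2, with lines at the strain means. CYC7 is highest in gal83 and lowest in the triple strain, and 1 sip2 gal83 array lies apart for COX5B, at 8.0.

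The genes whose 8 strain means ran most like these forms were found over all 5449 genes by Pearson's r over the 8 strains, as a description. For CYC7 they were PDH1 (r = 0.975), MPC3 (r = 0.962), which encodes a subunit of the mitochondrial pyruvate carrier, and CDC6 (r = 0.956). For NDE2 they were KIN1 (r = 0.994), CYR1 (r = 0.994), the adenylate cyclase gene, and LSP1 (r = 0.990). For COX5A they were HCM1 (r = 0.989), COX4 (r = 0.985) of the same complex, and TRL1 (r = 0.983). CYC1 ran most like MRP10 (r = 0.949), a gene of the mitochondrial ribosome, FKS1 (r = 0.944) and TIM17 (r = 0.925). NDE1 ran most like MRPL37 (r = 0.946), also of the mitochondrial ribosome, MRPL27 (r = 0.942) and TYW3 (r = 0.938). The genes most like COX5B were YET1 (r = 0.969), CDC31 (r = 0.954) and CTL1 (r = 0.934). Those most like NDI1 were FMP25 (r = 0.962), DNM1 (r = 0.952) and HMG1 (r = 0.949). All genes share the same 24 arrays.

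The ATP synthase divided by subunit. In the single deletion strains ATP1 and ATP2, the α and β subunits of the catalytic head, ATP3 and ATP16, the γ and δ subunits of the central stalk, and ATP5 and ATP14 of the outer stalk passed in none on all 24 arrays. ATP1 was called lower without the 3 doubted arrays in sip2 (-0.12, adjusted p = 0.0222) and gal83 (-0.13, adjusted p = 0.0105). The genes that rose in all 3 were ATP7 of the outer stalk, ATP15, the ε subunit of the central stalk, and the small membrane subunit genes ATP17, ATP18, ATP19 and ATP20. ATP4, the b subunit of the outer stalk, was lower in sip2, at -0.16 ± 0.049 (adjusted p = 0.016), and in sip1, at -0.13 ± 0.049 (adjusted p = 0.044). Centring the arrays ended both calls (adjusted p = 0.792 and 0.699), as did leaving out reference replicate 1 (adjusted p = 0.0891 and 0.194). The sip2 call also ended without sip2 replicate 3 (adjusted p = 0.0646), and the sip1 call without any array compared but reference replicate 3 (adjusted p = 0.0594 to 0.194). In gal83 ATP4 stood at -0.12 (adjusted p = 0.0667, or 0.0496 without the 3 doubted arrays). The ATP17 calls ended in each single deletion strain without reference replicate 1 (adjusted p = 0.0614, 0.107 and 0.0634 in sip1, sip2 and gal83), and in sip2 also without reference replicate 2 or sip2 replicate 2 or 3 (adjusted p = 0.0502 to 0.0703). The ATP18 call in sip2 ended without reference replicate 2 or sip2 replicate 2 (adjusted p = 0.124 and 0.086). The median change of the 13 genes was 0.073 in sip1, 0.030 in sip2 and 0.0081 in gal83.

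ATP19 encodes subunit k, a small subunit bound to the dimeric enzyme, and had the largest rise among the 40 genes in sip1 and sip2. The reference arrays read 12.64, 12.66 and 12.67. The arrays read 13.22, 13.55 and 13.58 in sip1, 13.61, 13.62 and 13.63 in sip2, and 13.54, 13.55 and 13.59 in gal83, far above the reference. The rises were 0.79 ± 0.080 (adjusted p = 2.19e-06), 0.97 ± 0.080 (adjusted p = 2.86e-07) and 0.91 ± 0.080 (adjusted p = 6.46e-07). In sip1 sip2 ATP19 read 12.73, 12.77 and 12.89, just above the reference arrays, with a change of 0.14 that did not pass. It rose by 0.45 ± 0.080 in sip2 gal83 (adjusted p = 0.000655) and by 0.50 ± 0.080 in the triple strain (adjusted p = 0.000114).

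ATP20 encodes subunit g, which takes part in dimer formation, and its highest strain was the triple. Its reference arrays read 13.74, 13.77 and 13.85, and those of the triple strain 14.17, 14.25 and 14.27. The rise was 0.45 ± 0.064 (adjusted p = 3.77e-05), where the single deletion strains gave 0.25, 0.26 and 0.25, all called. ATP7 read 14.35, 14.40 and 14.48 in the reference and 14.70, 14.75 and 14.78 in sip1, and rose by 0.33 ± 0.046 (adjusted p = 4.76e-05). It rose in sip2 by 0.32 ± 0.046 (adjusted p = 5.31e-05) and in gal83 by 0.24 ± 0.046 (adjusted p = 0.000599). In the 3 strains that lack Gal83 and at least 1 other β-subunit, ATP7 stood between -0.0022 and 0.052 and passed in none.

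What the deletion of SIP1 and SIP2 did together differed from the sum of the single deletions. The interaction term, the change in sip1 sip2 minus the sum of the changes in sip1 and sip2, was called for 25 of the 40 genes, 5 higher and 20 lower (38.9% and 13.4% of all genes, 52.4% in either direction). Centring the arrays made this 1 higher and 27 lower, and leaving out the 3 doubted arrays 6 higher and 21 lower. The median term was -0.25 in the 40 genes and 0.17 over all genes. For ATP19 it was -1.62 ± 0.11 (adjusted p = 1.14e-08). For COX9 it was -0.84 ± 0.064 (adjusted p = 2.7e-08), and all 8 complex IV genes other than COX5B were lower by this term. For CYT1 it was 1.12 ± 0.13 (adjusted p = 2.28e-06). The term also ran with gene length, as given below. Leaving out any 1 array of these strains kept 24 of the 25 calls, ATP5 being the exception. ATP5 did not pass without sip1 sip2 replicate 3, the array with SIP2 signal (adjusted p = 0.0629), or without replicate 2 of sip1 or sip2 or replicate 2 or 3 of the reference (adjusted p = 0.0509 to 0.0837).

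Set directly against the mean of the single strains sip1 and sip2, with no reference arrays, sip1 sip2 had 18 of the 40 genes lower and 3 higher (11.1% and 29.8% of all genes, 40.9% in either direction), or 23 lower and 1 higher with centred arrays. Without the 3 doubted arrays 16 were lower and 3 higher. Of the 40 genes, 2 were called in gal83 against that same mean. CYC7 was higher, by 0.49, and SDH3 lower, at -0.14 (2.24% of all genes were higher and 1.5% lower, 3.74% in either direction). Leaving out sip1 replicate 1, sip2 replicate 1 or replicate 2, or gal83 replicate 1 or replicate 2 gave 0 calls. With centred arrays, or without sip1 replicate 2 or 3 or sip2 replicate 3, CYC7 was the 1 call. Without the 3 doubted arrays 4 were called, with COX5B higher by 0.56 (adjusted p = 0.00291) and SDH1 lower at -0.15 (adjusted p = 0.0348) beside CYC7 and SDH3.

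The loss of Gal83 where Sip1 and Sip2 are already missing was given by the triple strain against sip1 sip2. In that comparison 6 of the 40 genes were higher and 4 lower (14.1% and 18% of all genes, 32.1% in either direction), or 7 and 2 with centred arrays. Without the 3 doubted arrays 6 were higher and 5 lower. ATP20 rose by 0.42 ± 0.064 (adjusted p = 9.89e-05), ATP19 by 0.36 ± 0.080 (adjusted p = 0.00248), and COX13, the subunit VIa gene, by 0.17 ± 0.042 (adjusted p = 0.00538). NDE2 fell as given above. The strain with only Sip2 left, sip1 gal83, had 10 genes higher than the strain with only Sip1 left, sip2 gal83, and 0 lower (9.78% and 2.75% of all genes, 12.5% in either direction). Without the 3 doubted arrays 2 were called, with centred arrays 2 higher and 1 lower, and with only these strains in the fit 0. Leaving out sip1 gal83 replicate 1 gave 4, sip1 gal83 replicate 2 gave 6 and sip2 gal83 replicate 1 gave 4.

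The genes that rose in the single deletion strains were mostly short. By the annotated gene length of the reference table, which includes introns and no untranslated regions, 19 of the 40 genes have at most 450 bases, 11 have up to 900 and 10 have more. These limits were chosen after the values were seen, so the classes are described and not tested. In sip1, 17 of the 19 short genes were called higher and 0 lower, against 1 higher and 1 lower of the 10 long genes. Of the other genes in sip1, 30.1% of the short were higher and 6.95% lower, and 6.44% of the long were higher and 33.2% lower. In sip2 the counts were 16 and 0 of the short genes, and 0 and 1 of the long genes, where 28.8% of the other short genes were higher and 5.79% lower, and 4.47% of the other long genes higher and 38.4% lower. In gal83 they were 16 and 0 of the short genes, and 0 and 2 of the long genes, where the shares of the others were 30.9% and 5.41% of the short and 6.87% and 35.7% of the long. The genes above 450 bases that rose in all 3 strains were COX4 at 468 bases, COX5A at 462 and ATP7 at 525. The short genes that rose in none of them were QCR6 and ATP14. By the interaction term of SIP1 and SIP2, 0 of the short genes were called higher and 17 lower, and 1 and 0 of the long genes. Of the other genes, 11.4% of the short were higher and 36.9% lower by this term, and 44.4% and 9.22% of the long.

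The length trend was present outside the respiratory genes but smaller. In sip1 the median change was 0.25 in the short and -0.059 in the long respiratory genes, and 0.059 and -0.13 in 518 short and 3666 long other genes. In gal83 the values were 0.25 and -0.079 for the respiratory genes, and 0.078 and -0.15 for the others. Spearman's rho between length and change over the 40 genes was -0.785 in sip1, -0.769 in sip2 and -0.758 in gal83, against -0.147, -0.224 and -0.196 over the 5409 other genes. It was -0.62 in sip1 sip2, where no gene was called. For the interaction term of SIP1 and SIP2 it was 0.759 over the 40 genes and 0.147 over the others. The genes share arrays and reference, so these are descriptions. Between mean level and change, rho was 0.0623, 0.0841 and -0.124 over the 40 genes, and 0.202, 0.277 and 0.213 over the others, where it was larger in size than that with length.

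**Figure D4:**
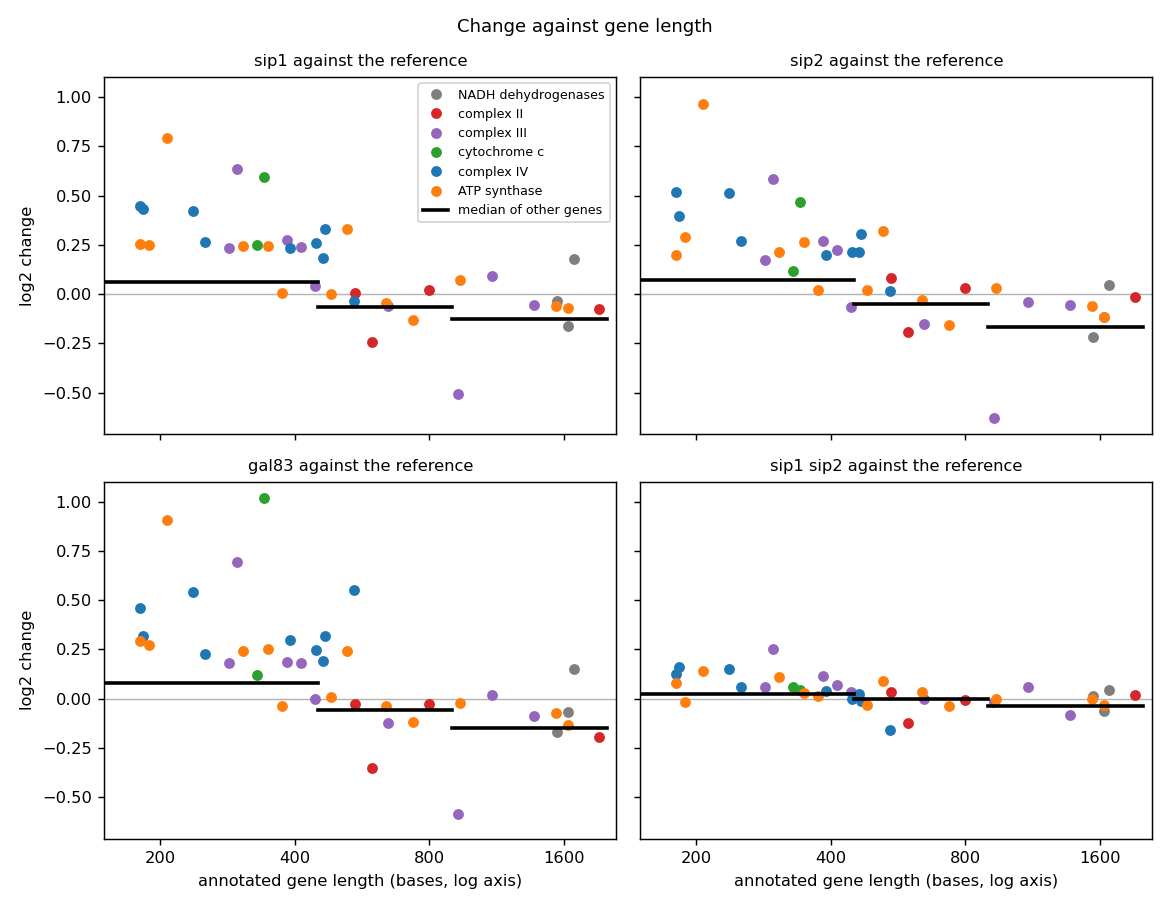
Log2 change against the reference (vertical) by annotated gene length in bases (horizontal, log axis) for the 40 genes, coloured by complex, in 4 strains. Black lines give the median of all other genes up to 450, up to 900 and above 900 bases. In the single deletion strains the highest points are those of short genes, and in sip1 sip2 no gene passed the test.

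The same was read array by array as the median of the short genes minus that of the long genes, with each gene set relative to its mean over the 24 arrays. For the respiratory genes this was -0.238, -0.216 and -0.190 on the reference arrays. It was 0.080, 0.089 and 0.142 in sip1, 0.099, 0.119 and 0.166 in sip2, and 0.115, 0.155 and 0.166 in gal83. In sip1 sip2 it was -0.173, -0.163 and -0.060, above the reference on every array. The other genes gave values of -0.156 to -0.119 in the reference and of 0.022 to 0.079 on the 9 arrays of the single deletion strains. In sip2 gal83, replicate 1 read 0.264 beside -0.044 and -0.030, and the other genes read 0.154 beside -0.026 and -0.013. Whether RNA quality or labelling had a part in this difference by length was not tested.

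**Figure D5:**
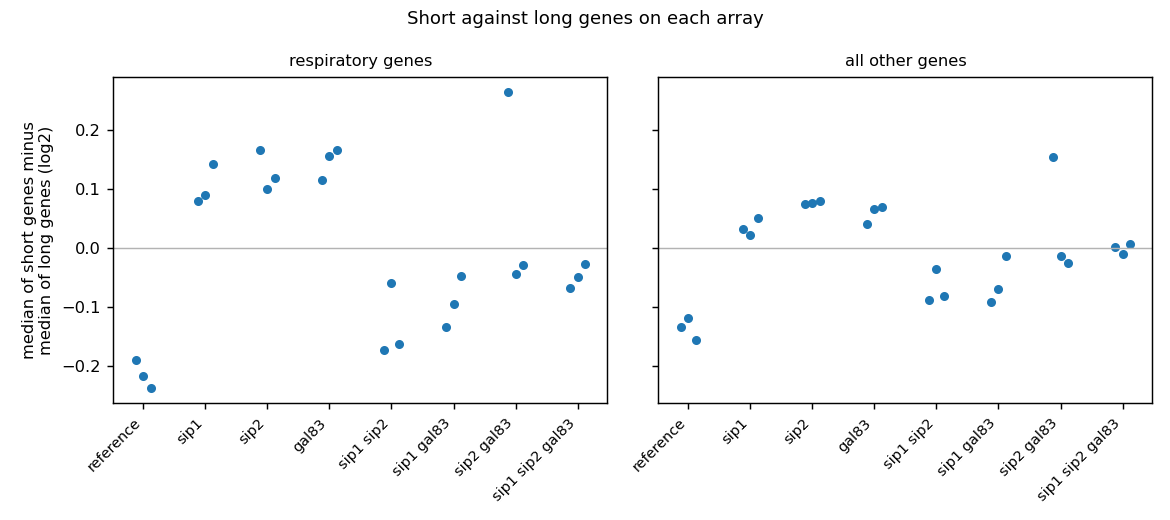
Median of the short genes (up to 450 bases) minus the median of the long genes (over 900 bases), log2, on each of the 3 arrays of the 8 strains (horizontal), for the respiratory genes and for all other genes. The 9 arrays of the single deletion strains lie above 0 in both panels and the reference arrays lie below, and 1 sip2 gal83 array, at 0.264 and 0.154, lies above all others.

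Among genes around the chain, the lists of assembly factors and regulators held calls in both directions. The counts below stand against 10.3% of all genes higher and 29.1% lower in sip1, 8.55% and 32.1% in sip2, and 10.6% and 30.6% in gal83, and many of the shares called lower are near these. Of 34 assembly genes of complex IV, 8 were higher and 9 lower in sip1, 5 and 9 in sip2, and 5 and 11 in gal83, with median changes of -0.018, -0.054 and -0.085. The lower calls were 26.5%, 26.5% and 32.4% of the list, near the shares of all genes. CMC2, a small protein of the intermembrane space needed for complex IV, read 10.74, 10.78 and 10.82 in the reference and 11.55 to 11.83 on all 9 arrays of the single deletion strains, and rose by 0.87 ± 0.13, 0.87 ± 0.13 and 0.89 ± 0.13 in sip1, sip2 and gal83. COX17, the copper chaperone gene, rose by 0.63, 0.61 and 0.63. PET122, a translational activator of the mitochondrial COX3 message, had reference arrays at 8.22, 8.77 and 8.93 and arrays at 5.45, 6.41 and 6.70 in sip1, and fell by 2.46 ± 0.37 there. Its changes in sip2 and gal83 were -1.83 ± 0.37 and -1.72 ± 0.37, both called. COX23, another intermembrane space protein gene, rose in the triple strain, from 10.22, 10.25 and 10.36 in the reference to 11.01, 11.02 and 11.22. The rise was 0.81 ± 0.079 (adjusted p = 6.3e-07). In that strain 6 of the 34 genes were higher and 5 lower, 17.6% and 14.7%, against 14.9% and 23.5% of all genes. Their median change there was -0.036 and the lowest -0.62.

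Of 18 assembly and inhibitor genes of the ATP synthase, 5 were higher and 4 lower in sip1, 3 and 7 in sip2, and 3 and 6 in gal83, with median changes of 0.0042, -0.030 and -0.17. The lower calls were 22.2%, 38.9% and 33.3% of the list. TIM11, the subunit e gene of the dimer, rose by 0.33 ± 0.047, 0.32 ± 0.047 and 0.28 ± 0.047. ATP10, an assembly factor gene with a low signal, read 5.31, 5.61 and 6.24 in the reference and fell in all 3 strains, with changes of -1.73 ± 0.40, -2.13 ± 0.40 and -1.59 ± 0.40. Of 14 complex III assembly genes, 1 was higher and 2 lower in sip1, 0 and 7 in sip2, and 1 and 3 in gal83, with median changes of -0.0046, -0.20 and -0.10. The lower calls were 14.3%, 50% and 21.4% of the list. BCS1, which inserts the Rieske protein, fell in all 3 strains, with changes of -0.41 ± 0.058, -0.51 ± 0.058 and -0.35 ± 0.058. CYC3, which attaches haem to cytochrome c, fell as well, with changes of -0.48 ± 0.068, -0.35 ± 0.068 and -0.53 ± 0.068.

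Among 8 complex II assembly genes and paralogues, 2 were higher and 4 lower in sip1, 2 and 2 in sip2, and 2 and 3 in gal83, with median changes of -0.12, 0.062 and 0.046. The lower calls were 50%, 25% and 37.5% of this short list. In the triple strain the counts were 2 and 2, where 14.9% of all genes were higher and 23.5% lower, and the falls were those of the anchor paralogues. SHH4, the paralogue of SDH4, read 12.49, 12.64 and 12.73 in the reference and 11.05, 11.10 and 11.24 in the triple strain, and fell by 1.49 ± 0.17 (adjusted p = 3.9e-06). SHH3, the paralogue of SDH3, read 13.01, 13.14 and 13.17 and then 11.75, 11.92 and 12.04, with a change of -1.2 ± 0.19 (adjusted p = 0.00011). SDH6, an assembly factor gene, rose by 0.51 ± 0.12, 0.72 ± 0.12 and 0.57 ± 0.12 in sip1, sip2 and gal83.

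Of 13 genes of ubiquinone synthesis, 0 were higher and 4 lower in sip1, 1 and 6 in sip2, and 1 and 5 in gal83, with median changes of -0.16, -0.18 and -0.084. The lower calls were 30.8%, 46.2% and 38.5% of the list. CAT5 (COQ7), a hydroxylase of the pathway, fell in these strains, with changes of -0.67 ± 0.093, -0.63 ± 0.093 and -0.59 ± 0.093, and its 9 arrays in these strains, at 9.87 to 10.15, lay below the reference arrays at 10.49, 10.60 and 10.78. Of 8 haem synthesis genes, 1 was higher and 3 lower in sip1, 0 and 3 in sip2, and 1 and 3 in gal83, with median changes of -0.16, -0.18 and -0.16, and the lower calls were 37.5% of the list in each. Of 10 other electron donors, 1 was higher and 0 lower in sip1, 1 and 3 in sip2, and 1 and 1 in gal83, with median changes of 0.067, -0.088 and -0.062. CYB2, the lactate dehydrogenase that feeds cytochrome c, fell in the triple strain, with a change of -0.78 ± 0.11 (adjusted p = 2.9e-05). It also fell in sip2 gal83, with -0.66 ± 0.11 (adjusted p = 0.00035). In the triple strain 3 of these 10 genes were higher and 3 lower, 30% and 30%, against 14.9% and 23.5% of all genes. The sip2 gal83 counts were 2 and 5, 20% and 50%, against 10.8% and 26.4% of all genes. Of 10 carriers for ADP, ATP and phosphate and related proteins, 0 were higher and 3 lower in sip1, 0 and 4 in sip2, and 0 and 2 in gal83, with median changes of -0.10, -0.058 and -0.10, and the lower calls were 30%, 40% and 20% of the list.

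Of 15 regulators of respiratory genes, 1 was higher and 6 lower in sip1, 1 and 10 in sip2, and 1 and 6 in gal83, with median changes of -0.20, -0.37 and -0.095. The lower calls were 40%, 66.7% and 40% of the list. PUF3, which encodes a protein that binds messages of mitochondrial proteins, had a low signal, with reference arrays at 3.98, 4.0 and 4.15 and sip1 arrays at 5.64, 5.98 and 6.14, a rise of 1.88 ± 0.41 (adjusted p = 0.0018). RTG1, a transcription factor of the retrograde pathway from mitochondria to nucleus, fell from 7.15, 7.47 and 7.47 to 4.72, 5.43 and 5.82 in sip1, a change of -2.04 ± 0.28 (adjusted p = 3.8e-05), and changed by -1.80 ± 0.28 in both sip2 and gal83. HAP5, a subunit of the activator of respiratory genes, fell in sip2 gal83, with a change of -0.83 ± 0.13 (adjusted p = 0.00029). HAP3 of the same activator rose in the triple strain by 0.37 ± 0.073 (adjusted p = 0.00075). Of the 15 regulators, 1 was higher and 6 lower in sip2 gal83, 6.67% and 40%, against 10.8% and 26.4% of all genes. In the triple strain 1 was higher and 4 lower, 6.67% and 26.7%, against 14.9% and 23.5% of all genes.

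The list of genes repressed by oxygen or haem, which holds CYC7 and COX5B, had 13 measured members. Of these, 1 was higher and 2 lower in sip1, 1 and 1 in sip2, 3 and 1 in gal83, 4 and 1 in sip2 gal83, and 3 and 2 in the triple strain. The higher calls were 7.69%, 7.69%, 23.1%, 30.8% and 23.1% of the list, against 10.3%, 8.55%, 10.6%, 10.8% and 14.9% of all genes. The lower calls were 15.4%, 7.69%, 7.69%, 7.69% and 15.4%, against 29.1%, 32.1%, 30.6%, 26.4% and 23.5% of all genes. Median changes of the 13 genes were -0.036, -0.0535, 0.032, 0.043 and 0.10. In gal83, 9 of the 13 did not pass, and the changes ran from -0.63 to 1.53. DAN1, a cell wall mannoprotein gene induced without oxygen, read 6.59, 6.83 and 7.04 in the reference. It read 8.16, 8.32 and 8.59 in gal83, above the reference, and rose by 1.53 ± 0.27 (adjusted p = 0.00029). It rose by 1.68 ± 0.27 in sip2 gal83 and by 1.46 ± 0.27 in the triple strain. UPC2, an activator of such genes, read 10.46, 10.46 and 10.69 in the reference and 11.06, 11.23 and 11.45 in gal83, and rose by 0.71 ± 0.17 (adjusted p = 0.003). ROX1, a repressor of such genes, changed by -0.83 ± 0.21 in sip1 (adjusted p = 0.0051), -0.83 ± 0.21 in sip2 (adjusted p = 0.005) and -0.91 ± 0.21 in the triple strain (adjusted p = 0.0029). These are not the same strains as those given for DAN1, apart from the triple strain.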

How the data were processed

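The submitters' processing notes name RMA and affy, with no version, for the deposited log2 values. The labels do not say which arrays were normalized together. Per the labels, total RNA was biotin-labelled. Of 5716 probe sets, 5498 name 1 gene and 218 none. The probe set with the highest mean was kept per gene, which left 5449 genes. Symbols and gene lengths came from the reference gene table (assembly R64). No coordinates or sequences are given.

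Groups came from the sample titles. One limma 3.58.1 model in R 4.3.3 (a mean per strain, eBayes, 16 residual degrees of freedom) gave 12 comparisons and the moderated F test, adjusted by Benjamini-Hochberg at 0.05 over all genes. No filter on low values was applied. The code was tested on simulated data. Members were listed by gene symbol, and members, lists and tests were chosen with earlier results of these data known. Every member may be named. Array values are given for up to 3 called genes per complex with the widest range and for alternative forms, and other lists name up to 3 called genes each way, of which some are printed. Alternatives were array centring, quantile normalization, no dim genes, the dimmest probe set per gene, trend and robust eBayes, array weights, the compared strains alone, a replicate block and leaving out each array.

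Same-numbered replicates correlated in their deviations at -0.352 to 0.333, with 30 of 84 pairs over 0.1. In the comparison of sip1 sip2 with the reference the pairs read 0.116, 0.129 and 0.100, and the block gave 0 calls there too. In that of sip2 gal83 they read 0.157, 0.038 and 0.272. No label says that arrays of the same number were paired.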

Additional observations from a re-analysis of the deposited data

Results flagged for a closer look

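The changes in sip1 sip2 differed from the sum of the changes in sip1 and sip2, by a test of the difference itself, for 25 of the 40 respiratory genes (52.4% of all genes). The interaction term was positive for 5 and negative for 20, against 38.9% and 13.4% of all genes, or positive for 1 and negative for 27 with centred arrays. In complex IV it was -0.64 for COX4, -0.37 for COX5A, -0.47 for COX6, -0.66 for COX7, -0.78 for COX8, -0.84 for COX9, -0.47 for COX12 and -0.39 for COX13. In the ATP synthase it was -0.56 for ATP7, -0.56 for ATP15, -0.35 for ATP17, -0.37 for ATP18, -1.62 for ATP19 and -0.48 for ATP20, and positive for ATP4 (0.25) and ATP5 (0.11). In complex III it was -0.43 for QCR7, -0.34 for QCR8, -0.40 for QCR9 and -0.96 for QCR10, and positive for RIP1 (0.21) and CYT1 (1.12). It was -0.31 for CYC1, -1.01 for CYC7 and 0.31 for SDH3. Of the positive terms, that of CYT1 passed with centred arrays. Those of SDH3, RIP1 and ATP4 did not (adjusted p = 0.236, 0.960 and 0.640), and that of ATP5 reversed. The term ran with gene length, with Spearman's rho of 0.759 over the 40 genes and 0.147 over the others. Whether RNA quality or labelling had a part in this was not tested.

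The effect of losing Gal83 differed from the mean effect of losing Sip1 or Sip2 for 1 gene upward, CYC7 (0.49), and 1 downward, SDH3 (-0.14). These are 5% of the 40 genes, against 3.74% of all genes. Leaving out any one of 5 arrays gave 0 calls, and SDH3 did not pass in 8 of the 9 fits without 1 array.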

How the results depend on the processing

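With 3 arrays per strain, small changes cannot be told from the spread. Of 2933 checks of called members under an alternative, 2631 kept direction and call, 300 kept the direction without passing and 2 reversed. Both reversals were ATP5 with centred arrays, at -0.014 for sip1 sip2 against the mean of sip1 and sip2 and at -0.097 for the interaction.

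The counts called moved by over 1.5 times in 4 comparisons. For sip1 gal83 against the reference (8 calls), array weights gave 15 and the compared strains alone 3. For sip2 gal83 (18 calls), the compared strains alone gave 3. For gal83 against the mean of sip1 and sip2 (2 calls), centring, leaving out dim genes, trend and robust eBayes and the replicate block gave 1, and array weights and leaving out the 3 doubted arrays gave 4. For sip1 gal83 against sip2 gal83 (10 calls), centring gave 3, array weights 18, leaving out the 3 doubted arrays 2 and the compared strains alone 0. The cause was not tested.

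Leaving out 1 array at a time gave the triple strain 13 to 15 calls, sip2 gal83 12 to 22, sip1 gal83 2 to 6, sip1 sip2 0, gal83 21 to 22, sip2 20 to 23 and sip1 21 to 24. It gave 0 to 2 for gal83 against the mean of sip1 and sip2, 17 to 22 for sip1 sip2 against that mean, 24 to 26 for the interaction, 8 to 12 for the triple strain against sip1 sip2, 4 to 14 for sip1 gal83 against sip2 gal83 and 32 to 36 for the F test.

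With the replicate number as a block, the triple strain had 16 calls against the reference, sip2 gal83 had 21, sip1 gal83 had 8, sip1 sip2 had 0, gal83 had 24, sip2 had 23 and sip1 had 24. The block gave 34 for the F test, 25 for the interaction, 21 for sip1 sip2 against the mean of sip1 and sip2, 10 for the triple strain against sip1 sip2 and 10 for sip1 gal83 against sip2 gal83. By the labels the strains share only a replicate number, and 10 of 24 arrays correlated best with their own number.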
